A study of Rattus norvegicus with 8 samples.

Results

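A single splice position on the plus strand of rat chromosome 4, at 58714647 on Rnor_6.0, served as the start of 9 different circular RNAs (circRNAs) in the cerebral cortex. The circRNAs described here are those 9 and the 12 others on that strand that share an exact end with one of them, 21 of the 51995 circRNAs in the deposited table. They lie between 58661995 and 58807502, an extent of 145508 bases. Gene names are absent from the table, and no annotation of this build was used here, so the circRNAs are described as a locus, by position, without a host gene. The locus was selected on these data: its RPM values in the 8 libraries were known, and the circRNA ending at 58802600 was chosen by its zeros in sham replicates 1 and 2 only. The values of that circRNA are therefore given as a description, with no test.

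Total RNA was profiled from 4 rats given a moderate traumatic brain injury, called mTBI in the labels, and 4 sham rats, 1 library each. Injured animals gave ipsilateral cortex from beside the lesion, and sham animals gave the matching site, 24 h after injury. The labels used here state no strain, age or sex. Levels are in RPM, in which the reads across a circRNA's junction are scaled to the reads of the library. Each library listed 21508 to 23713 circRNAs, which summed to 4966 to 5874 RPM, or 384910 to 452692 junction reads, taking 2 reads as the smallest value above 0. All read numbers here rest on that step, and a listing at 0 could then stand for 0 reads, 1 read or no call.

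A circRNA forms when the splicing machinery joins the end of a downstream exon back to the start of an upstream one, so the product is a closed ring without a cap or poly(A) tail. Such rings resist exonucleases, are abundant in brain and are enriched there at synapses. One upstream splice acceptor can be joined to several downstream splice donors, and the rings that result share their start and differ in the exons they can enclose. In the table the start of a plus-strand circRNA is the upstream side of the junction and the end is the downstream side.

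The 21 circRNAs used 9 distinct starts and 9 distinct ends, and spanned 5954 to 92856 bases (end minus start plus 1). Over all circRNAs of the table that use these starts, whether or not among the 21, the 9 from 58714647 had a summed mean of 20.7 RPM and the 5 from 58661995, the start with the next highest sum, had 0.866 RPM. Of those 5, 2 are among the 21, with 0.384 RPM. The other 7 starts summed to between 0.0129 and 0.139 RPM each. The 9 ends are by selection those that the shared start uses, so its lead at them is partly set by that choice. Ends within the extent that it does not use, such as 58669806, were left out. The shared start supplied 97.6% of the mean RPM of the 3 circRNAs ending at 58725647 and 97.3% of that of the 3 ending at 58739890. For the 4 circRNAs ending at 58780524 it supplied 75.1%, and for the 5 ending at 58807502 it supplied 50.4%. The end 58802600 was used by 1 circRNA of the table only, the one from the shared start.

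**Figure D1:**
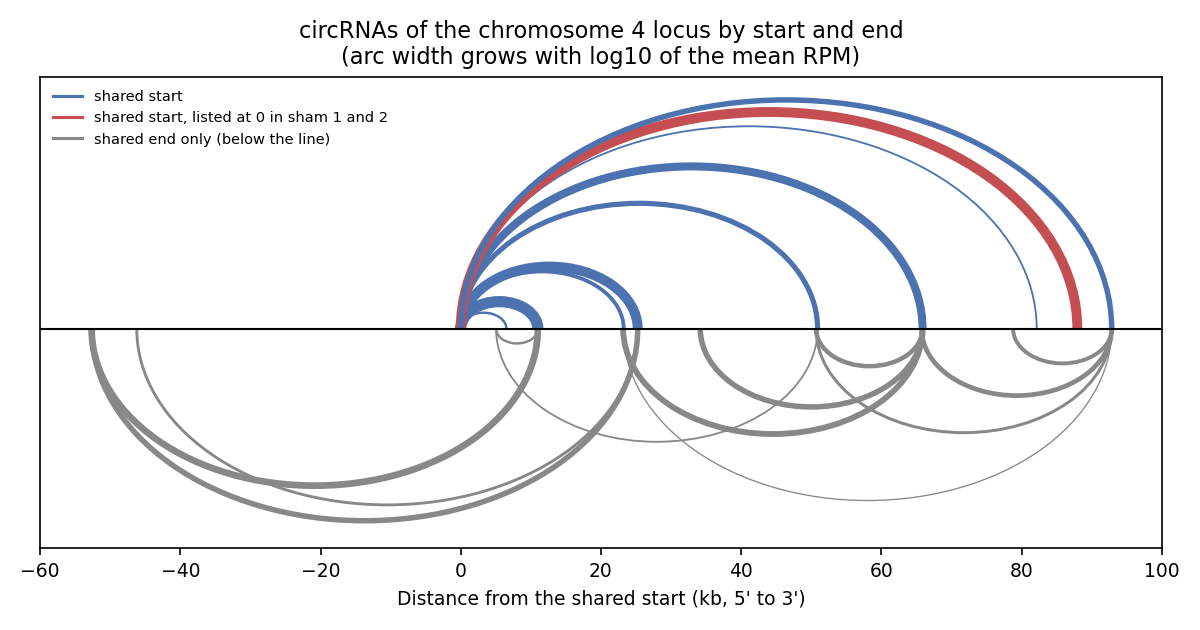
Arcs join the start and end of each of the 21 circRNAs, with distance from the shared start in kb on the x axis and arc width growing with the log10 of the mean RPM. The 9 arcs above the line leave the shared start, the red one being the circRNA listed at 0 in sham replicates 1 and 2, and the 12 grey arcs below share only an end.

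Some starts of the locus lie a short distance before an end. The start 58737815 lies 78 bases from the end 58737892, counting both positions, 58765341 lies 213 bases from 58765553, 58780395 lies 130 bases from 58780524 and 58793447 lies 148 bases from 58793594. Distances of this size are typical of single exons, which was not checked against an annotation. From the shared start itself the nearest downstream end, 58721163, lies 6517 bases away. For the starts 58661995, 58668432 and 58719694 the nearest downstream end is 1136, 1375 and 1470 bases away, and for 58748816 it is 16738 bases away.

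The shortest of the abundant circRNAs of the locus, from 58714647 to 58725647 and 11001 bases in span, was also the most abundant. Sham replicates 1 to 4 gave 11.7, 11.5, 10.3 and 12.4 RPM, and mTBI replicates 1 to 4 gave 10.7, 11.7, 12.1 and 12.95 RPM. The lowest value was in sham replicate 3 and the highest in mTBI replicate 4, and the groups overlapped. Its mean of 11.7 RPM, from 799 to 998 reads per library, ranked 27 in the whole table. Sham averaged 11.5 ± 0.858 RPM, compared with 11.9 ± 0.946 RPM after mTBI (SD, n = 4 each). The log2 change after mTBI was 0.05 (SE 0.12, 95% interval -0.20 to 0.29, limma adjusted p = 0.99998), on the scale of log2(RPM + 0.0259). In linear terms that interval runs from 0.873-fold to 1.22-fold.

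The circRNA from 58714647 to 58739890 extends the span to 25244 bases. Its sham values were 3.99, 4.09, 3.86 and 4.42 RPM, and its mTBI values were 4.17, 3.65, 4.16 and 4.48 RPM. Its values lay close together, and the lowest and the highest both came from injured animals. The group means were 4.09 ± 0.241 and 4.11 ± 0.341 RPM (SD, n = 4 each), and the log2 change was 0.01 (SE 0.14, 95% interval -0.27 to 0.28, limma adjusted p = 0.99998). This change is so near 0 that it turned to -0.02 when libraries were centred on their median.

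The circRNA from 58714647 to 58780524, spanning 65878 bases, was lower still. The sham libraries gave 0.788, 0.682, 0.983 and 1.06 RPM, and the mTBI libraries gave 0.826, 0.643, 0.873 and 0.947 RPM. Replicate 2 was the lowest library in each group, and the groups overlapped. Its means were 0.878 ± 0.173 and 0.822 ± 0.129 RPM (SD, n = 4 each), and the log2 change was -0.08 (SE 0.20, 95% interval -0.50 to 0.33, limma adjusted p = 0.99998).

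The fourth abundant circRNA of the shared start ends at 58802600, 87954 bases downstream. Sham replicates 3 and 4 gave 4.75 and 5.44 RPM and mTBI replicates 1 to 4 gave 5.04, 4.42, 5.67 and 5.59 RPM, while sham replicates 1 and 2 were listed at 0. The 6 libraries that list it did so from 344 to 435 reads, and both of their sham values lay within the mTBI range. No intermediate value occurred. Each value counts reads over 1 junction, so it does not grow with span. Where it was listed it exceeded the circRNA ending at 58739890 in every library, at 1.21 to 1.36 times its level. Level thus did not fall steadily with distance from the shared start: in those libraries the order was 58725647, 58802600, 58739890 and 58780524.

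**Figure D2:**
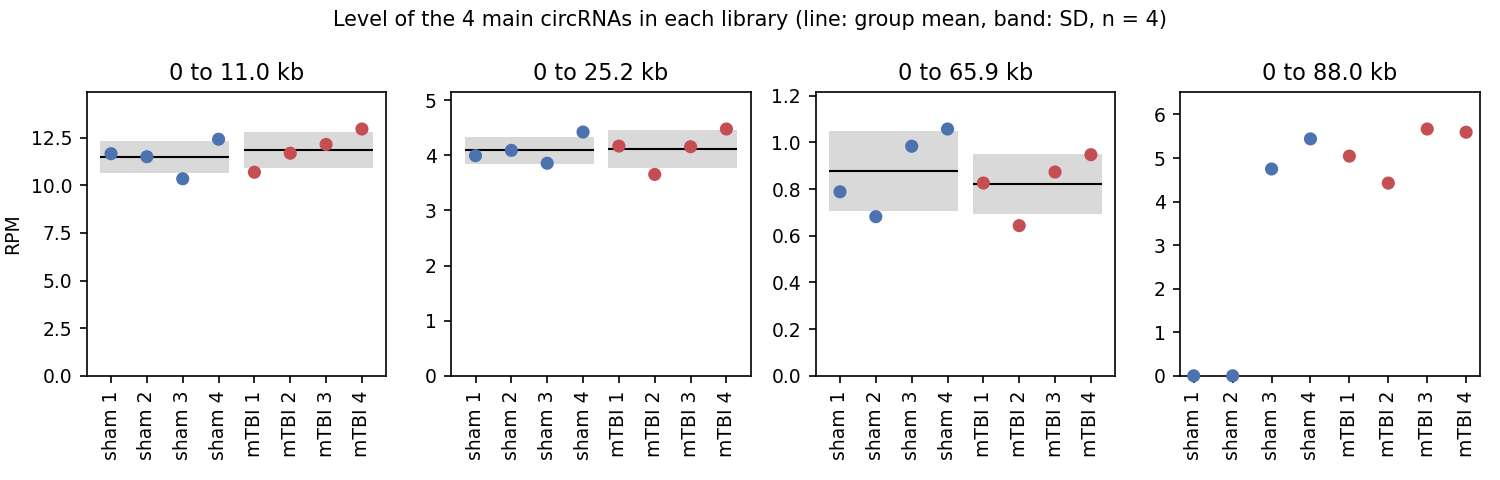
RPM in each of the 8 libraries for the 4 main circRNAs, named by the distance of their end from the shared start, with sham in blue and mTBI in red. Lines and bands, in the first 3 panels only, give the group mean and SD (n = 4). The first 3 panels show overlapping groups, and in the last panel sham 1 and sham 2 are at 0 while the other 6 libraries sit between 4.42 and 5.67 RPM.

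The other 3 abundant circRNAs of the shared start were listed in sham replicates 1 and 2 at levels within the range of the other libraries. The circRNA of the shared start that reaches farthest, to 58807502, was listed at 0.0904 and 0.105 RPM there, within its range of 0.0387 to 0.193 RPM over the 8 libraries. The summed level of the shared start without the circRNA ending at 58802600 was 16.6 RPM in sham replicate 1 and 16.4 RPM in sham replicate 2, and the other 6 libraries lay between 15.3 and 18.6 RPM. Sham replicate 2 listed the fewest circRNAs of the 8 libraries, 21508, while sham replicate 1 listed 22806, within the range of the rest. Sham replicates 1 and 2 held 426754 and 392786 reads, and the 6 libraries that list the circRNA held 384910 to 452692. The part of library size in these zeros was not tested.

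Zeros of this kind were uncommon at this level. This circRNA was chosen for its zeros, so its place in these counts is a description. The counts cover circRNAs listed in 2 or more libraries, by their lowest value where listed. Zeros in 1 to 6 libraries occurred in 1.28% of 623 circRNAs at 1 RPM or more and in 1.12% of 269 at 2 RPM or more. At 4 RPM or more the share was 1.85%: of 108 circRNAs, 106 were listed in all 8 libraries. The exceptions were this one and the chromosome 16 circRNA that joins 26755422 to 26780008 on the plus strand, which reached 6.37 to 10.1 RPM in 5 libraries and had its zeros in sham replicates 1, 2 and 4. In all, 105 circRNAs were listed at 0 in sham replicates 1 and 2 and in no other library, where the 28 pairs of libraries gave 63 to 123 such circRNAs with a median of 92. The other circRNAs with this pattern were scarce. After the one described here, the highest lay on chromosome 19 (46552916 to 46559348, plus strand), with a mean of 0.183 RPM in the other 6 libraries, followed by one on chromosome 16 (25524688 to 25554076, minus strand), with 0.175 RPM.

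It was also among the longer circRNAs. Of all circRNAs, 753 (1.45%) spanned at least 87954 bases, and the median of their means was 0.00977 RPM. With its zeros counted, the circRNA ending at 58802600 had a mean of 3.86 RPM and ranked 2 among them, behind 1 at 4.32 RPM. The median span over the table was 12157 bases.

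A further 2 circRNAs of the locus averaged at least 10 reads, and both start elsewhere. The first begins 52.7 kb upstream of the shared start, at 58661995, and shares the end 58725647 with the most abundant one. Sham levels were 0.323, 0.118, 0.311 and 0.335 RPM, and mTBI levels were 0.387, 0.219, 0.169 and 0.389 RPM. Sham replicate 2 was far below the other sham libraries, while the mTBI values ranged from 0.169 to 0.389 RPM and overlapped the sham range. The log2 change was 0.11 (SE 0.33, 95% interval -0.57 to 0.78, limma adjusted p = 0.99998), and without sham replicate 2 it was -0.21.

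The second begins 23.2 kb downstream of the shared start, at 58737815, and ends at 58780524. Its level was 0.0517, 0.0917, 0.142 and 0.142 RPM across the sham libraries and 0.168, 0.167, 0.221 and 0.104 RPM across the mTBI libraries. mTBI replicates 1 to 3 exceeded every sham value and mTBI replicate 4 did not, so the groups overlapped. Its 2 lowest values were those of sham replicates 1 and 2, at 4 and 7 reads, and mTBI replicate 4 was close, at 8 reads. The log2 change of 0.56 (SE 0.39, 95% interval -0.24 to 1.35) had the smallest unadjusted p of the 13 circRNAs tested in the locus, 0.167, and did not pass over the whole table (limma adjusted p = 0.973). It was 0.32 without sham replicate 1 and 0.36 with 4 times the pseudocount, and it rests on 4 to 17 reads per library.

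The remaining 15 circRNAs were scarce, with means of 0.00323 to 0.102 RPM and no value above 0.197 RPM. Among them, 5 have the shared start. Those ending at 58807502 and 58765553 averaged 0.0988 and 0.0793 RPM, the first listed in all 8 libraries and the second in all but sham replicate 2. The circRNA ending at 58737892 was listed in 6 libraries and that ending at 58721163 in 2. The circRNA ending at 58796810 was listed in mTBI replicate 1 only, at 0.0387 RPM. The highest of the 10 that share only an end were those from 58661995 to 58739890 and from 58748816 to 58780524, each with a mean of 0.102 RPM and listed in all 8 libraries. In the first, sham replicate 2 stood highest, at 0.197 RPM, where the same start joined to 58725647 was at its lowest. In the second, sham replicates 1 and 2 gave 0.142 and 0.131 RPM, toward the upper end of its range of 0.0386 to 0.155 RPM.

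The main comparison asked whether levels differed between injured and sham cortex, and none of the 13 circRNAs of this locus whose test is given passed. Of the 21, 7 were listed in at most 3 of 8 libraries and were not tested. The remaining 14 were listed in at least 4 and entered the fit, among them the one described without a test. Of the other 13, 0 passed an adjusted p of 0.05 (limma), and 0 had an unadjusted p under 0.05. Over all 20174 circRNAs tested, 0.0248% passed and 4.68% had an unadjusted p under 0.05. With limma voom on reads 0 of the 13 passed as well, against 0.0149% of all circRNAs tested. The values of sham and mTBI did not overlap for 0 of the 13, against 2.81% of all tested. Log2 changes were above 0 for 7 and below 0 for 6, from -0.61 to 0.66 with a median of 0.01, and the median over all circRNAs tested was -0.02. For 9 of the 13 the 95% interval reached a 2-fold change in at least 1 direction, and for the 4 most abundant it did not.

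**Figure D3:**
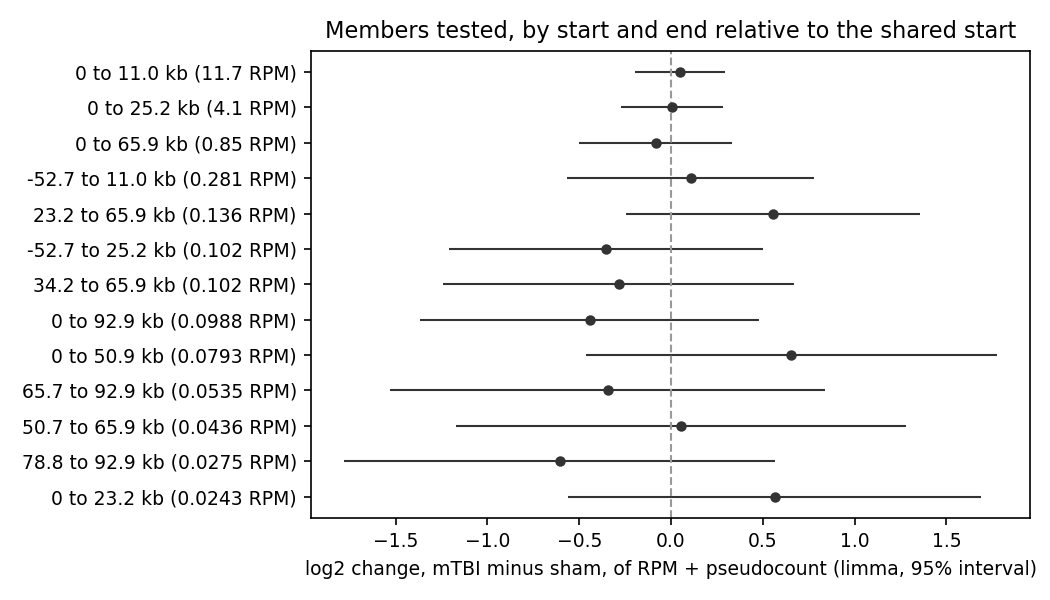
Log2 change (mTBI minus sham) with its limma 95% interval for the 13 circRNAs tested, ordered by mean RPM and named by the distance of start and end from the shared start. Every interval includes 0, and the narrowest are those of the most abundant circRNAs, at the top.

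The summed output of the locus was then compared. Without the circRNA ending at 58802600 the total was 17.4, 17.01, 16.3 and 19.0 RPM for sham replicates 1 to 4 and 16.8, 16.8, 18.3 and 19.3 RPM for mTBI replicates 1 to 4. The groups overlapped. Means of 17.4 ± 1.16 and 17.8 ± 1.24 RPM (SD, n = 4 each) differed by 0.365 RPM (exact permutation test over 70 assignments, two-sided, p = 0.714, adjusted over 2 tests 0.714). This total made up 0.300% to 0.339% of the summed RPM of each library. With 4 animals per group the smallest p this test can give is 0.0286.

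With the circRNA ending at 58802600 the sham totals read 17.4, 17.01, 21.1 and 24.5 RPM and the mTBI totals 21.8, 21.3, 23.9 and 24.9 RPM. Sham replicates 1 and 2 were then the lowest of the 8 libraries, which they were not without it. It supplied 20.8% to 23.7% of the total in the 6 libraries that list it. The group means of 19.99 ± 3.50 and 23.0 ± 1.74 RPM (SD, n = 4 each) differed by 3.0 RPM, which is given without a test because these zeros led to the choice of the locus.

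**Figure D4:**
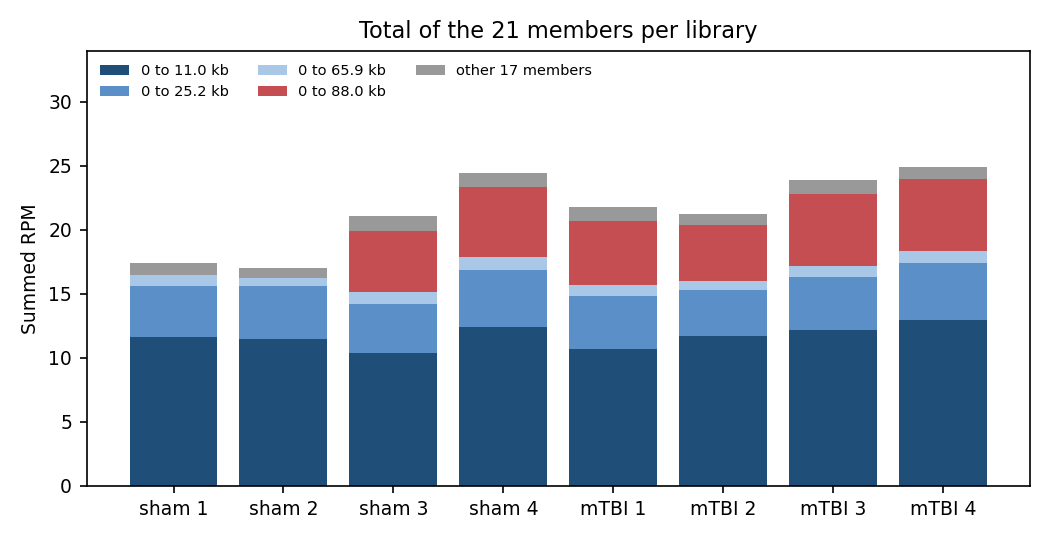
Summed RPM of the 21 circRNAs in each library, stacked by circRNA (distance of the end from the shared start). The blue segments keep similar heights in all 8 bars, and the red segment, the circRNA ending 88.0 kb from the shared start, is missing from sham 1 and sham 2.

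The proportions within the locus were compared last. Within the total without the circRNA ending at 58802600, the one ending at 58725647 supplied 67.0%, 67.6%, 63.4% and 65.2% in sham and 63.7%, 69.4%, 66.5% and 66.9% in mTBI. The lowest share was in sham replicate 3 and the highest in mTBI replicate 2. The means of 65.8% ± 1.87 and 66.6% ± 2.33 (SD, n = 4 each) differed by 0.832 percentage points (exact permutation test, two-sided, p = 0.629, adjusted 0.714). The ratio of the circRNA ending at 58739890 to the one ending at 58725647 ran from 0.313 to 0.390 over the 8 libraries, and both extremes were mTBI libraries.

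Among the 31336 starts of the table, counted per strand, the shared start ranked 11 by its summed mean and 17 without the circRNA ending at 58802600. Its rank within single libraries was 11 to 17, the last being sham replicate 1. A start had a median of 1 end, and 89 starts (0.284%) had 9 ends or more. Among these 89 the median summed mean was 1.64 RPM, and the shared start ranked 4. Its most abundant circRNA supplied 56.4% of the sum, within the quartiles of the 89 starts (40.2% to 65.1%). It had 3 ends with a mean of at least 1 RPM, which 6 of the 89 starts matched or exceeded, itself included.

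Spread between libraries was low for the circRNAs from the shared start to 58725647 and 58739890, compared with circRNAs of like abundance. The coefficient of variation over the 8 libraries was 7.38% for the circRNA ending at 58725647, where counting alone would give about 3.33%, and the median of 72 circRNAs of like abundance (within 2-fold, listed in all 8 libraries) was 11.5%. For the one from the shared start to 58739890 it was 6.67%, near the 5.62% from counting, against a median of 13.0% over 311 circRNAs of like abundance. Only 2.78% of the first set and 1.93% of the second had a lower coefficient. The circRNA ending at 58780524 from the shared start, at 17.01%, lay below its median of 21.1%, and the 2 named circRNAs with other starts, at 35.9% and 38.8%, lay near theirs (32.1% and 40.1%). With its zeros counted, the circRNA ending at 58802600 had a coefficient of 62.7%.

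**Figure D5:**
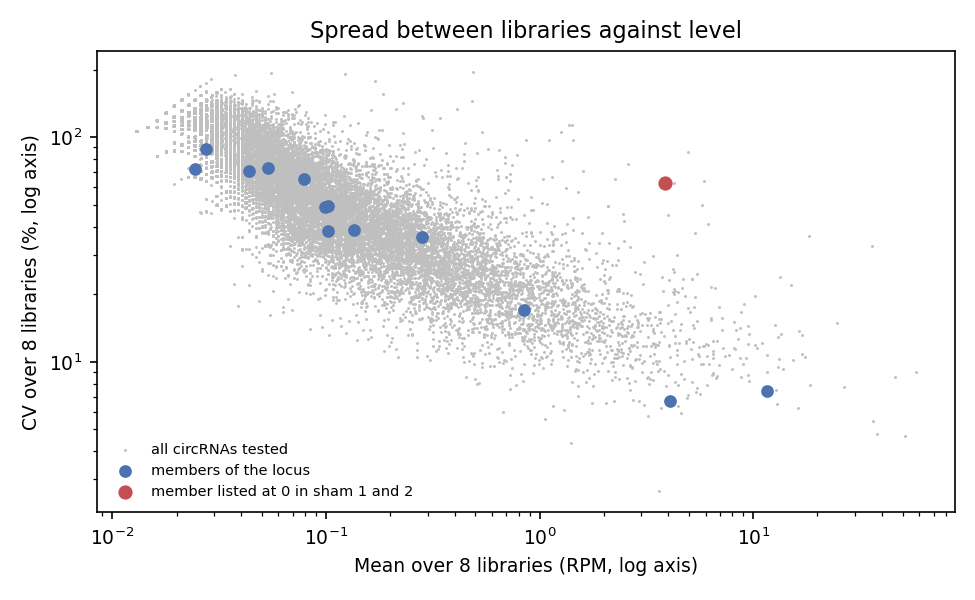
Coefficient of variation over the 8 libraries (percent, log axis) against mean RPM (log axis) for all 20174 circRNAs tested (grey), 13 of the locus (blue) and the circRNA listed at 0 in sham 1 and 2 (red). The 2 most abundant blue points, at 7.38% and 6.67%, lie at the lower edge of the cloud. The red point, at 62.7%, lies far above those 2, and some scarcer blue points lie higher, up to 88.7%.

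The 3 circRNAs outside the locus whose pattern over the 8 libraries was most like that of its total, without the circRNA ending at 58802600, were sought. Pearson's r of log2(RPM + 0.0259) was used. All 3 are plus-strand circRNAs. One lies on chromosome 17, 84881616 to 84904355 (r = 0.972), one on chromosome 8, 131711421 to 131730485 (r = 0.969), and one on chromosome 2, 5335393 to 5418063 (r = 0.967). The r values compare pattern and not level or size of change. The means of these circRNAs were 0.109, 0.288 and 0.0648 RPM, in that order, while the total ran from 16.3 to 19.3 RPM. The one on chromosome 2 ranged from 0.0259 to 0.117 RPM. These 3 are the highest of 9074 circRNAs compared over only 8 points that share library depth, and are given as a description.

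Around the locus, 14 further plus-strand circRNAs overlapped its extent, of which 7 share a start with one of the 21 and 7 share neither position. No circRNA of the opposite strand was listed there. The highest of the 14, from 58661995 to 58669806, ranged from 0.387 to 0.511 RPM among sham libraries and from 0.296 to 0.545 RPM among mTBI libraries. The highest of those sharing neither position, from 58627457 to 58669806, averaged 0.118 RPM.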

How the data were processed

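Total RNA of 8 rat cortex samples (RNA integrity number 7 or more) went into stranded libraries without ribosomal RNA, per the labels. Trimmomatic 0.36, DESeq and Rnor_6.0 appear in the submitters' processing notes. No source used here gives the aligner or circRNA caller. The authors deposited RPM values, 1 column per library. Columns headed Con were read as the sham libraries, which the labels' protocol calls controls. Every nonzero value was a whole multiple (tolerance 0.01 read) of 0.5 times the library's smallest, which was taken as 2 reads.

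The whole table was fitted, and the locus' rows were printed. The test was limma 3.58.1 (R 4.3.3, eBayes with trend) on log2(RPM + 0.0259) for circRNAs above 0 in 4 or more of 8 libraries, with a Benjamini-Hochberg threshold of 0.05. This scale understates the change of low circRNAs. The pseudocount is the median of the libraries' smallest values. The function was tested on simulated data. Totals and shares were compared with exact permutation tests (Python 3.11.15, scipy 1.17.1). The labels describe separate cortex samples, so each p-value sets the difference between groups against the spread between these samples. Members and lists were chosen with earlier results of these data known. Values were given per library for the 4 ends that define the locus and for circRNAs averaging at least 10 reads. Alternatives covered the pseudocount, filter, scaling, variance model, replicate number and each library left out.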

Additional observations from a re-analysis of the deposited data

Results flagged for a closer look

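In 18 groups of 4 libraries (6 circRNAs, 2 totals and 1 share, in each group of animals), 1 had a library far from the other 3. Sham replicate 2 gave 0.118 RPM for the circRNA from 58661995 to 58725647, and the other sham libraries gave 0.311 to 0.335 RPM. The gap to the nearest library was 0.887 of the group's range, above Dixon's 95% critical value. Chance flags about 1 group in 20. The value rests on 9 reads, against 24 to 26 in the other sham libraries.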

How the results depend on the processing

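Apart from the one described without a test, 0 of 13 circRNAs of the locus passed in the main limma fit. The number was also 0 under all 17 alternatives to it. The set of circRNAs tested changed with the filter and with a library left out. The smallest adjusted p over the alternatives, 0.622, came without a filter, when 51995 circRNAs were tested over the table (limma). Over the whole table the number that passed was 5, and it was 1 without the variance trend, 10 with 4 times the pseudocount, 0 when a mean of 10 reads was required (295 at an unadjusted p under 0.05), 9 after median centring, 55 without a filter, 23 with robust shrinkage and 3 with limma voom, an alternative added once the data had been seen. With 1 library left out at a time the number was 2 to 9 over the table and 0 in the locus. The cause of these shifts was not tested. With the replicate number as a block, 0 passed over the table (limma, 889 at an unadjusted p under 0.05) and 0 in the locus. Same-numbered libraries did not deviate together (r of -0.01 to 0.02 over 5944 circRNAs), so no pairing by number was seen in the levels. These values cannot show whether same-numbered animals were handled together. A count test with edgeR was not run, since the read numbers rest on taking the smallest value as 2 reads. The limma voom fit rests on the same step.

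Leaving out each library in turn moved the difference in the total without the circRNA ending at 58802600 over -0.149 to 0.898 RPM, changing sign without mTBI replicate 4 or sham replicate 3, and the share of the most abundant circRNA over -0.0841 to 1.81 percentage points, changing sign without mTBI replicate 2 (exact permutation p of at least 0.343). The total of all 21 circRNAs differed by 2.01 to 4.50 RPM. That total includes the circRNA chosen by its zeros in sham replicates 1 and 2, so this range is a description only. Log2 changes ran from -0.21 to 0.31 for the circRNA from 58661995 to 58725647 and from 0.32 to 0.73 for that from 58737815 to 58780524. For those of the shared start they ran from -0.00163 to 0.10 (end 58725647), -0.0356 to 0.0616 (58739890) and -0.20 to 0.0252 (58780524). For the end 58739890 the change was -0.0247 with libraries centred on their median. In the main fit the 95% interval of each of these log2 changes included 0. Depth limits the 15 scarce circRNAs, which averaged under 10 reads.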
